A study of Mus musculus with 576 samples.

Results

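The cells described here are the p27 negative haematopoietic stem cells of control mouse bone marrow. All 96 control cells that the labels class as p27 negative were considered, and the 95 with at least 50000 reads in genes and at least 1000 detected genes were kept, of 576 cells in the series. The cell left out was number 66, with 25956 gene reads, and the shallowest kept cell was number 52, with 63015.

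The series compared single cells in 6 groups of 96, formed by treatment (control, or lipopolysaccharide, LPS, a bacterial cell wall component) and by a p27 marker class (high, low or negative). Every cell came from marrow of femurs and tibias and had been sorted as CD150+CD48-cKit+Sca1+, a phenotype enriched for long-term haematopoietic stem cells (HSCs). Besides the 95 control p27 negative cells, this account uses 93 control p27 low cells, 84 control p27 high cells and 92 LPS p27 negative cells that passed the same limits. Strain, age and number of animals, the form of the p27 marker, and the dose and time of LPS are unstated in the labels. Each group therefore counts as 1 sample, differences between groups have no replicate check, and no p-value is given.

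A dividing cell copies its DNA in S phase, then builds a spindle, condenses its chromosomes and separates them in mitosis. The genes for these steps are switched on in waves, so the RNA of a cell carries a trace of its stage. p27, encoded by Cdkn1b, inhibits cyclin-dependent kinases (CDKs), and stem cells of adult marrow are known for spending most of their time outside the cycle.

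The promoters of the mitosis genes show a sequence feature. It belongs to the listed genes, whichever cells are studied, and is no separate sign of division in these cells. Of the 64 mitosis genes listed for this account, 53 had a promoter in the RefSeq table (build GRCm38.p6, the mm10 assembly), taken as 250 bases before to 50 bases after the first listed start. The motifs searched, on either strand, were CCAAT, the box bound by NF-Y, and TTTGAA, a form of the cell cycle homology region found in promoters of genes of G2 and mitosis. TTTGAA stood in 37 of the 53 promoters (69.8%), against 18.1% of all 27025 promoters and 12.1% of the 7244 promoters of genes with at least 10 CPM (counts per 1000000 gene reads) in these cells. CCAAT stood in 37 (69.8%), against 37.9% and 39.6%, and 31 promoters held both (58.5%, against 7.12% and 5.04%). Of 24 promoters of DNA replication genes, 3 held TTTGAA (12.5%) and 16 held CCAAT (66.7%). These are matches of letters and not measured binding sites. The 150 bases before the start are shown, 5′ to 3′, for 3 of the marker genes and for 3 further mitosis genes described below, with the motifs in capitals (ATTGG and TTCAAA are the same motifs on the other strand).
Mki67, chr7:135716380-135716529, minus strand: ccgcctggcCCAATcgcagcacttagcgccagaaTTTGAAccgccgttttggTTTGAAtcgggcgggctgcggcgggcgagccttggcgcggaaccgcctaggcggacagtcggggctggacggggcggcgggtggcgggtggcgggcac
Birc5, chr11:117849087-117849236, plus strand: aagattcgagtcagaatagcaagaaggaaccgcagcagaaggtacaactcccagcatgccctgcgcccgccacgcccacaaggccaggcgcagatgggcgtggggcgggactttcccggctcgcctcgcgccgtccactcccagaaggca
Ccnb2, chr9:70421555-70421704, minus strand: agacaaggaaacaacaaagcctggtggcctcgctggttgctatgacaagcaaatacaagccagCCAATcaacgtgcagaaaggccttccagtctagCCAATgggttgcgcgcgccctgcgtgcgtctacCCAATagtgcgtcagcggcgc
Cdk1, chr10:69352913-69353062, minus strand: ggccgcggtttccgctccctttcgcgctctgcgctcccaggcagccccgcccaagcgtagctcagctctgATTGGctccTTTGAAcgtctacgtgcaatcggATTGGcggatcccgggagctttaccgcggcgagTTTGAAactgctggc
Cdc20, chr4:118437344-118437493, minus strand: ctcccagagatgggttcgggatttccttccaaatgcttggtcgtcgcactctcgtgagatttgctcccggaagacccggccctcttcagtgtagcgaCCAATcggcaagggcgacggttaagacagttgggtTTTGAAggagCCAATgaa
Ube2c, chr2:164769779-164769928, plus strand: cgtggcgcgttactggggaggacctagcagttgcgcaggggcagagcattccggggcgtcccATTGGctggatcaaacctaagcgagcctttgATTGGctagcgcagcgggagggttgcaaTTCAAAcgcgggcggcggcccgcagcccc
In these windows Cdk1, Cdc20 and Ube2c held both motifs near the start and Mki67 held both farther upstream. Ccnb2 held CCAAT 3 times, with its TTTGAA matches outside the stretch shown, and Birc5 held neither motif in its whole window. The absence of these letters from the window of Birc5 says nothing of the factors that act there.

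The kept cells had between 63015 and 1942773 gene reads, with a median of 390369. The median was 224003 in control p27 low, 229696 in control p27 high and 439918 in LPS p27 negative cells. After thinning to 50000 reads, 4849 genes were detected in the median control p27 negative cell (lowest 460, highest 5588), against 4177 in p27 low, 3930 in p27 high and 4916 in LPS p27 negative cells. The lowest value belonged to cell 13, in which 97.9% of gene reads were of mitochondrially encoded genes, against a median of 5.59% over the group. A further cell, number 51, stood at 23.2%, and no other kept cell exceeded 10%. No pair of kept cells held identical counts. Cells numbered 1 to 32 stood apart in the ERCC spike-ins, RNAs added to each cell, with a median of 59247 ERCC reads, against 12534 in cells numbered 33 to 64 and 11583 in those numbered 65 to 96. The same step was present in p27 low and p27 high cells but not in LPS p27 negative cells. Xist, expressed from the inactive X chromosome of females, and the Y-linked genes Ddx3y, Eif2s3y, Kdm5d and Uty served to show how far reads spread between cells. With at least 5 reads, 60 cells had Xist alone, 26 had Y-linked RNA alone, 2 had both and 7 had neither, whereas with any read 53 cells had both. The cells therefore came from animals of both sexes. Shares of cells with 1 read or more before thinning carry a background that shares with at least 5 reads largely lack. In the following, a gene is found in a cell if at least 1 of its 50000 reads after thinning is of that gene, and the share with at least 5 reads before thinning is given beside it where it matters. Intervals of levels are exact 95% Poisson intervals and those of shares are 95% Clopper-Pearson intervals. They cover the counting of reads and the drawing of cells only, and reads without molecular identifiers are not molecules.

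Transcripts of the general cell machinery took the most reads. Levels are given as CPM of the 41583206 gene reads summed over the 95 cells, and comparisons between genes as TPM, which also divides by exon length. An rRNA entry, CT010467.1, had 43585 CPM, mitochondrial 16S rRNA (mt-Rnr2) 40685 CPM, the cytoskeletal actin Actb 10598 CPM, the cytochrome oxidase subunit mt-Co1 9055 CPM and the phosphate transporter gene Slc34a2 6774 CPM. Outside mitochondrially encoded and ribosomal protein genes, the next levels were 4657 CPM for the MHC class I light chain B2m, 3205 for the tubulin Tubb5, 3183 for the chaperone Hsp90ab1, 3172 for the carbonic anhydrase Car2, 2938 for H2-K1 and 2779 for the ATP synthase subunit Atp5b. Per length, B2m (14095 TPM) stood above Actb (10296 TPM), Slc34a2 (3517 TPM) and Car2 (3409 TPM). The 20 highest outside those classes were completed by Cnbp, H2-D1, Eef1a1, Tagln2, Rack1, Eef2, Adgrg1, Hnrnpa2b1, Atp5a1, Pfn1 and H3f3b, between 1558 and 2743 CPM. Of these, Adgrg1 encodes the adhesion receptor GPR56 of stem cells. Slc34a2 was lower than in the other control classes, at 9424 CPM in p27 low and 13212 in p27 high cells, and higher than the 3816 CPM of LPS p27 negative cells. In cells 13 and 66, with few other nuclear reads, it took 46.2% and 34.2% of reads not mitochondrially encoded. Whether its CPM follows the transcript of these cells was not tested. Tubb5 stood apart from both other control classes, with 3205 CPM in control p27 negative cells, against 694 in p27 low, 1138 in p27 high and 3003 in LPS p27 negative cells. It is a subunit of microtubules, from which the spindle is built.

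Of 46078 genes, 20824 had a read in the group, 9464 had at least 10 CPM and 2354 at least 100 CPM. 617 genes were found in at least 90% of cells and 46 in every cell. Of the 2354 genes of at least 100 CPM, 564 were found in at least 90% of cells and 101 in under 50%.

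The 4 genes given as markers of these cells were all present, in different shares. Mki67 (ENSMUSG00000031004, mm10 chromosome 7, 135689784 to 135716361), the gene of the proliferation antigen Ki-67, had 0 CPM in the lowest cell, 682 in the median cell and 3365 in the highest. It was found in 89 of 95 cells (93.7%, 86.8 to 97.6%), and 87.4% had at least 5 reads. Birc5 (chromosome 11, 117849251 to 117855743), the survivin subunit of the chromosomal passenger complex that corrects chromosome attachment, ranged from 0 to 995 CPM with a median of 278 and was found in 81.1% of cells (71.7 to 88.4%). Ccnb2 (chromosome 9, 70407692 to 70421547), the cyclin B2 partner of CDK1, ranged from 0 to 2903 CPM with a median of 377 and was found in 87.4% (79 to 93.3%). Most cells thus held RNA of all 3 genes, with levels that differed widely among them.

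Gata1 (chromosome X, 7959260 to 7978071), the transcription factor of erythroid cells and megakaryocytes, differed in that most cells had little of it. Its lowest, median and highest levels were 0, 9.58 and 1882 CPM, and it was found in 55.8% of cells (45.2 to 66%). Of all kept cells, 44.2% held at least 5 reads of it before thinning.

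Summed over the group, Mki67 had 804 CPM (795 to 812) in control p27 negative cells, against 64.2 in p27 low, 11.6 in p27 high and 656 in LPS p27 negative cells. Birc5 had 297 CPM (291 to 302), against 5.91, 2.39 and 286 in the same order. Ccnb2 had 509 CPM (502 to 516), against 77.1, 4.79 and 407. For these genes the p27 negative cells of both treatments stood together, apart from both other control classes. Gata1 did not follow that order, with 182 CPM (178 to 186) in control p27 negative cells, against 186 in p27 low, 24.8 in p27 high and 91.2 in LPS p27 negative cells.

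**Figure D1:**
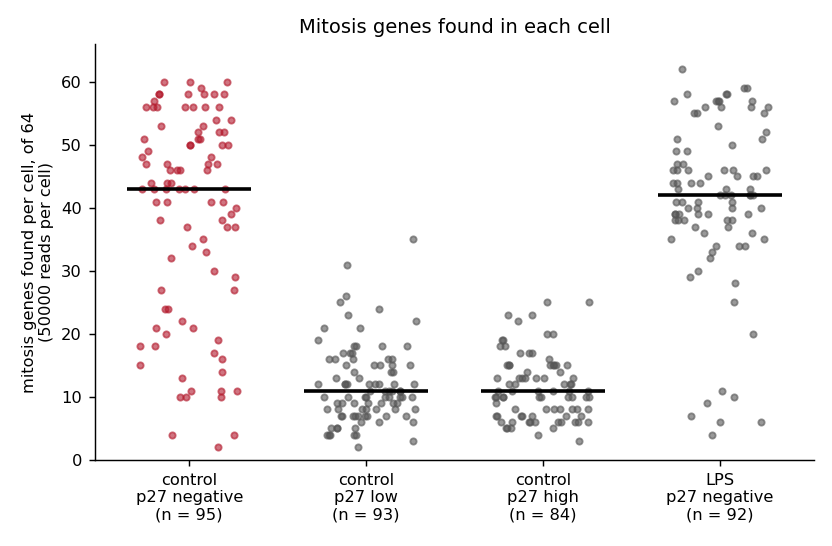
Number of 64 mitosis genes found in each cell after thinning to 50000 reads (vertical axis), by group; points are cells and bars are medians. The control p27 negative cells run from 2 to 60 genes with a median of 43, and no p27 low or p27 high cell exceeds 35.

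Mitosis genes were counted in each cell to ask how many cells carried the programme. Of 64 genes in 6 lists, the control p27 negative cells held between 2 and 60, with quartiles of 27, 43 and 52. Control p27 low cells held between 2 and 35 with a median of 11, p27 high cells between 3 and 25 with a median of 11, and LPS p27 negative cells between 4 and 62 with a median of 42. At least 32 of the 64 were found in 68 of 95 control p27 negative cells (71.6%, 61.4 to 80.4%), against 1 of 93 p27 low cells (1.08%), 0 of 84 p27 high cells (0%, up to 4.30%) and 80 of 92 LPS p27 negative cells (87%). The lower end was also filled: 17 control p27 negative cells held fewer than 20 of the genes, among them cell 13 with 4. Cells numbered 1 to 32, 33 to 64 and 65 to 96 in the labels had medians of 40.5, 50 and 43 genes. The mitosis genes took 1.16% of reads in the median cell (lowest 0.00411%, highest 3.65%), against medians of 0.0808% in p27 low, 0.0871% in p27 high and 0.949% in LPS p27 negative cells.

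The difference from the other control classes ran through all 6 mitosis lists. A gene was counted as 2-fold higher or lower if summed CPM after adding 1 CPM differed at least 2-fold and the higher group had at least 10 CPM, which 63 of the 64 genes had. 62 were 2-fold higher than in p27 low cells, where 8.42% of all 10236 genes with that level were, and the median log2 fold was 3.83, against -0.06 over all these genes. 61 were 2-fold higher than in p27 high cells, where 8.56% of 10360 genes were, with a median log2 fold of 4.38 against -0.06. None was 2-fold lower in either comparison. The exception in both was Pttg1, the securin that guards sister chromatids, with 38.6 CPM in control p27 negative cells, against 51.2 in p27 low and 27.7 in p27 high cells. Ect2, which starts cytokinesis, was 2-fold higher than in p27 low cells only, with log2 folds of 2.05 and 0.61. Against LPS p27 negative cells, 0 of 63 mitosis genes were 2-fold higher and 0 were 2-fold lower, with a median log2 fold of 0.22 against 0.13 over 9948 genes. In that comparison the shift of all genes depended on the scaling and came to 0.02 with TMM factors.

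Among the cyclins and CDK1, all 9 genes were 2-fold higher than in p27 low and in p27 high cells. Cdk1, the kinase that drives entry into mitosis, ranged from 0 to 1577 CPM per cell with a median of 376 and had 545 CPM in control p27 negative cells, against 48.9 in p27 low and 61.4 in p27 high cells. Ccna2, cyclin A2, had 493 CPM, against 18.4 and 8.06. Among mitotic kinases and the passenger complex, 12 of 12 were 2-fold higher in both comparisons. Plk1, polo-like kinase 1, had 143 CPM, against 0.953 and 10.5. It was found in 51.6% of control p27 negative cells.

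Of 14 kinetochore and kinesin genes, 14 were 2-fold higher in both comparisons. Nuf2, a subunit of the NDC80 complex that holds microtubules, had 140 CPM in control p27 negative cells, against 1.08 in p27 low and 3.09 in p27 high cells. Of 10 spindle and cytokinesis genes, 10 were 2-fold higher than in p27 low and 9 than in p27 high cells. Nusap1, a spindle-binding protein, had 266 CPM, against 2.50 and 3.82. Of the genes around the anaphase-promoting complex, the ubiquitin ligase that ends mitosis, 7 of 8 had at least 10 CPM in a group and 6 were 2-fold higher in both comparisons. Cdc20, its activator, ranged from 0 to 2268 CPM per cell with a median of 109 and was found in 70.5% of cells. Ube2c, its E2 enzyme, ranged from 0 to 2101 CPM with a median of 42.2 and was found in 56.8%.

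Of 11 genes for chromosomes and mitotic transcription factors, 11 were 2-fold higher in both comparisons. Top2a, the topoisomerase that untangles chromosomes, had 701 CPM in control p27 negative cells, against 31.1 in p27 low and 31.1 in p27 high cells. Ncapg, a condensin subunit, had 154 CPM, against 1.18 and 1.15. By the size of the fold among genes of at least 50 CPM, the 5 highest over p27 low cells were Neil3, Nusap1, Plk1, Ncapg and Nuf2, with log2 folds of 6.51 to 6.08. Neil3, a DNA glycosylase that was on none of these lists, had 263 CPM, against 1.91 in p27 low and 8.98 in p27 high cells. The 5 highest over p27 high cells were Ccnb2, Birc5, Esco2, Ube2c and Ncapg, with log2 folds of 6.46 to 6.17. Esco2, an acetyltransferase of cohesin, stood at 171 CPM, against 1.20 in p27 high cells.

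DNA replication genes differed less, and p27 low and p27 high cells expressed many of them too. 16 of 30 were 2-fold higher than in p27 low cells, against 8.42% of all genes, and 9 than in p27 high cells, against 8.56%, and none was 2-fold lower. Their median log2 folds were 1.09 and 0.71. Mcm2 and Mcm6, subunits of the replicative helicase, had 470 and 753 CPM in control p27 negative cells, against 417 and 588 in p27 low and 367 and 592 in p27 high cells. Cdc45, which joins that helicase when it fires, had 156 CPM, against 22.7 and 21.5. Gmnn, the inhibitor of repeated origin licensing, had 185 CPM, against 40.2 and 39.6. Cdt1, which loads the helicase, had 262 CPM, against 114 and 116. These helicase subunits thus differed by less than 2-fold among the control classes, while Cdc45, Gmnn and Cdt1 differed by more. The count depended on the cells: 19 genes in cells numbered 1 to 32, 6 in those numbered 33 to 64 and 20 in those numbered 65 to 96 were 2-fold higher than in p27 low cells. Over all genes the counts in these ranges were 1781, 1667 and 1706, against 862 in all kept cells. For these and all later counts within ranges, the share over all genes is not given.

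Of 8 genes of deoxynucleotide synthesis, 5 were 2-fold higher than in p27 low and 6 than in p27 high cells, against 8.42% and 8.56% of all genes. Rrm1 and Rrm2, the subunits of ribonucleotide reductase, had 557 and 298 CPM in control p27 negative cells, against 132 and 65.3 in p27 low and 173 and 13.9 in p27 high cells.

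The gene of p27 itself did not set the classes apart. Cdkn1b had 81.9 CPM in control p27 negative cells, against 68.5 in p27 low and 74.6 in p27 high cells, and it was found in 74.7% of control p27 negative cells (64.8 to 83.1%), against 67.7% and 61.9%. Among the other CDK inhibitors, Cdkn2c (p18) had 58.3 CPM, against 9.86 and 10.2, and Cdkn2d (p19) had 177 CPM, against 101 and 51.2. Cdkn1c (p57) had 15.6 CPM, against 26.6 and 49.1. No read of Cdkn2a or Cdkn2b was present. Cdkn1a (p21) had 27.8 CPM, of which 60.7% came from cell 39.

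Of 17 G1 cyclins, CDKs, RB and E2F genes, 6 were 2-fold higher than in p27 low cells, against 8.42% of all genes, and 1 was 2-fold lower, against 10.2%. The lower gene was the D-type cyclin gene Ccnd1, with a log2 fold of -1.59. E2f7 and E2f8, repressors within the E2F family, had 47.9 and 98.4 CPM in control p27 negative cells, against 0.526 and 23.5 in p27 low and 1.98 and 16.9 in p27 high cells. Another D-type cyclin gene, Ccnd2, had 337 CPM, against 672 and 838, with log2 folds of -0.99 and -1.31. Cdk4 and Cdk6, their kinase partners, had 944 and 626 CPM and were found in 97.9% and 91.6% of cells.

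**Figure D2:**
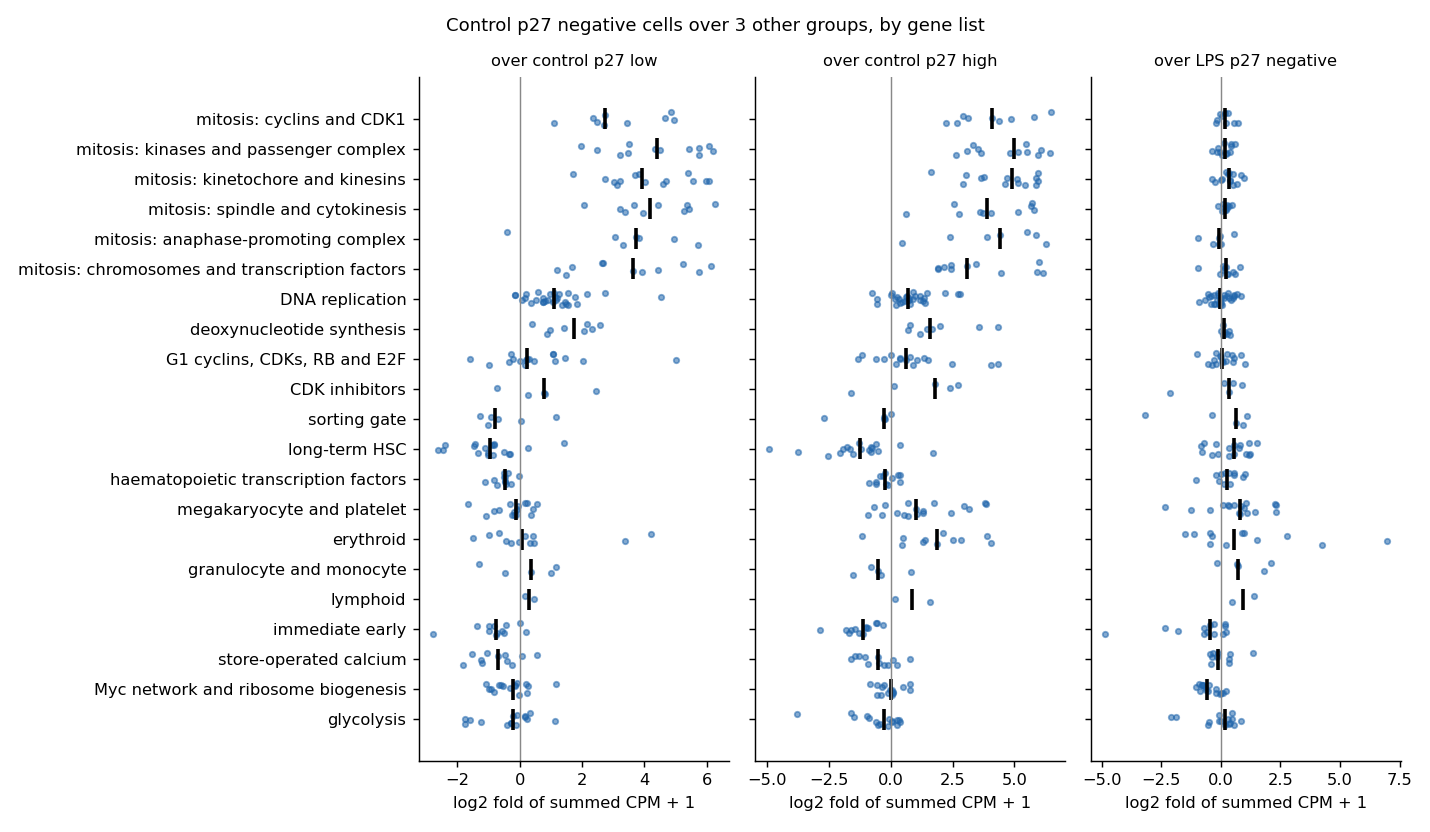
log2 fold of summed CPM after adding 1 CPM, control p27 negative cells over control p27 low, control p27 high and LPS p27 negative cells (3 panels), for each gene list; points are genes with at least 10 CPM in the higher group and bars are list medians. The 6 mitosis lists lie at medians of 2.75 to 4.97 in the left and middle panels and the long-term HSC list at -0.94 and -1.23.

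Genes of long-term HSCs stood lower. Of 18, 9 were 2-fold lower than in p27 low cells, where 10.2% of all genes were, and 10 were 2-fold lower than in p27 high cells, where 13% were. The count against p27 low cells was 5 by the mean of per-cell CPM and 6 to 12 over the ranges of cell numbers. Over all genes, 801 were 2-fold lower by that mean and 1429 to 1880 in the ranges, against 1044 in summed CPM of all kept cells. 1 gene, Ctnnal1, was 2-fold higher in both comparisons. The median log2 folds were -0.94 and -1.23. Procr, the surface receptor EPCR, had 0 CPM in the lowest control p27 negative cell, 1.24 in the median cell and 284 in the highest, and 16 CPM in sum, against 93 in p27 low and 228 in p27 high cells. It was found in 24.2% of control p27 negative cells (16 to 34.1%), against 35.5% and 58.3%. Sult1a1, a sulfotransferase, had 10.8 CPM, against 60.5 and 354. Of the Sult1a1 reads, 55% came from cell 1, and the gene was found in 11.6% of control p27 negative cells.

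Ifitm1, an interferon-induced membrane protein gene, was found in 89.5% of control p27 negative cells but stood at 211 CPM, against 574 in p27 low and 1214 in p27 high cells. Txnip, a thioredoxin-binding protein, was found in every cell and had 987 CPM, against 1797 and 2236. Hlf, a transcription factor of stem cell identity, ranged from 0 to 1300 CPM per cell with a median of 29.2 and had 93.2 CPM in sum, against 164 and 273. For these genes the level was lower while many cells kept the transcript. Meis1 and Mecom, further stem cell transcription factors, did not pass 2-fold, with 360 and 43.8 CPM, against 449 and 56.3 in p27 low and 551 and 81.3 in p27 high cells.

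By fold, the 5 lowest genes against p27 low cells were 1700030K09Rik, Samd10, Gm11346, Smad1 and Thsd1, and against p27 high cells Pygm, Sult1a1, Gm45837, Aldoc and Procr. Pygm, muscle glycogen phosphorylase, had 0.673 CPM in control p27 negative cells, against 92.4 in p27 high cells. Smad1, a transducer of BMP signals, had 9.79 CPM, against 66.7 in p27 low cells. Aldoc, an aldolase, had 5.89 CPM, against 94.2 in p27 high cells, and its relative Aldoa had 336 CPM, against 1027 and 1017 in p27 low and p27 high cells. Of the whole glycolysis list, 4 of 15 genes with at least 10 CPM were 2-fold lower than in p27 low cells, and 1 was higher. Against p27 high cells 3 of 16 were lower. Without Aldoa and Aldoc, 2 of 13 were lower than in p27 low and 1 of 14 than in p27 high cells. Of all genes, 10.2% and 13% were lower. The values of Gapdh and Pgk1 are uncertain, as these genes have near-identical copies.

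The sorting markers were read at very different levels. Kit, the stem cell factor receptor, ranged from 4.02 to 1273 CPM with a median of 287 and was found in 94.7% of cells. Slamf1, the gene of CD150, had a median of 1.77 CPM and a highest value of 773, and was found in 30.5% of cells (21.5 to 40.8%). Ly6a, the gene of Sca1, had 49.7 CPM and was found in 38.9%, against 122 CPM in p27 low, 331 in p27 high and 455 in LPS p27 negative cells. Cd48, whose protein the sort excluded, was found in 5.26% (1.73 to 11.9%), and 55.7% of its reads came from cell 51. Flt3, a receptor of multipotent progenitors, was found in 17.9%. The transcripts of Slamf1 and Ly6a were thus not found in most of these cells, although the sort selected their proteins. Cd34, whose protein long-term HSCs of adult mice mostly lack, ranged from 0 to 3395 CPM with a median of 253 and was found in 76 of 95 cells. Of 5 gate genes with at least 10 CPM, Cd34 among them, 0 were 2-fold higher and 1 was lower than in p27 high cells, against 8.56% and 13% of all genes. Of 6, 1 was 2-fold higher and 2 were lower than in p27 low cells, against 8.42% and 10.2%.

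**Figure D3:**
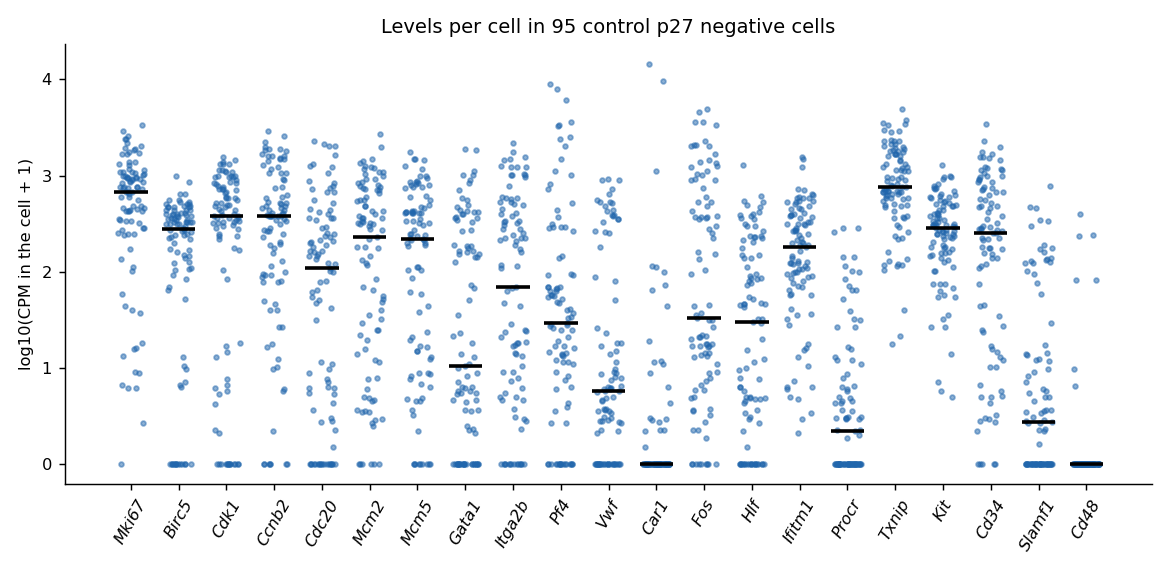
Level of 21 genes in each of the 95 control p27 negative cells, as log10 of CPM plus 1; points are cells and bars are medians. Most cells lie near the medians of Txnip and Kit, 766 and 287 CPM, whereas Gata1, Fos and Pf4 spread from 0 to 1882, 4902 and 8868 CPM.

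Cell-to-cell spread was measured as the squared coefficient of variation after thinning, divided by the median of the genes nearest in mean level. Of 2354 genes with at least 100 CPM that were found in at least 10% of cells, 76 had a ratio of at least 2. Without the highest cell of each gene the number was 48. The 18 ERCC spike-in RNAs with at least 5 reads per cell had a median ratio of 0.279 (0.0375 to 1.01) to the genes of the same mean, measured at 2000 spike-in reads per cell. Most spike-ins thus varied less over cells than genes of the same mean.

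**Figure D4:**
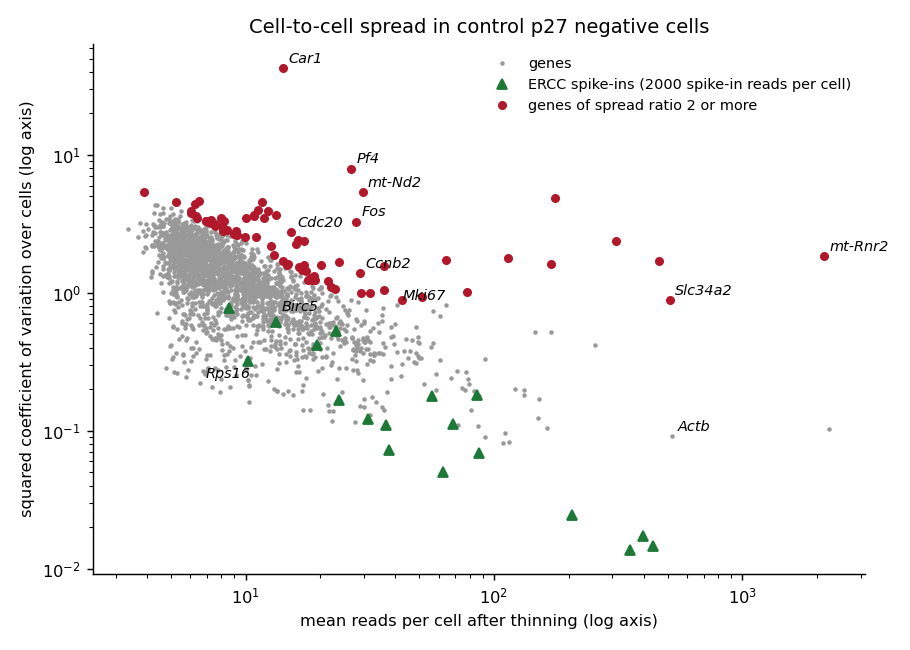
Squared coefficient of variation over the 95 control p27 negative cells against mean reads per cell after thinning, both on log axes, for genes of at least 100 CPM; red circles have a spread ratio of at least 2 and green triangles are ERCC spike-ins. Car1, Pf4 and Fos lie far above genes of their mean level, with ratios of 52.3, 16.6 and 7.04, and Actb lies low, with 0.210.

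The largest ratio, 52.3, belonged to Car1, a carbonic anhydrase of early erythroid cells. It was found in 12.6% of cells, and 81.6% of its reads came from cell 34, the only case of a gene of at least 100 CPM with over 50% of its reads in 1 cell. Without that cell its level was 72.4 CPM in place of 384 CPM. Pf4, platelet factor 4, had a ratio of 16.6 and ran from 0 to 8868 CPM per cell with a median of 28.4. The immediate early genes Fos and Ier2, which respond within minutes to stimulation, had 7.04 and 4.50. The linker histone gene Hist1h1c had 4.16, followed by the core histone gene Hist1h2bc. Fos ran from 0 to 4902 CPM with a median of 31.8.

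The other 6 of the 12 highest ratios were of mt-Nd2, mt-Nd1, mt-Cytb, mt-Rnr2, mt-Nd5 and mt-Nd4, between 3.96 and 12.2. They rested on cells 13 and 51: with these left out they were between 0.151 and 0.73, while those of Car1, Pf4 and Fos were 52.5, 17.1 and 7.30. The lowest ratios, 0.124 to 0.132, were of Gm13456, Gm3511, Gm9800, Rps16 and Rps26. The values of these ribosomal protein genes and of the Gm entries may mix reads of near-identical copies. The 42 ribosomal protein genes of sufficient level had a median ratio of 0.229.

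Mitosis genes were on the variable side, with a median ratio of 1.34 over 45 genes, against 0.986 over all 2354. 6 of them reached 2. Cdc20 had 3.62, Ube2c 3.53, Ccnb2 3.13, Top2a 2.27, Pbk 2.04 and Ccna2 2.03, whereas Birc5 had 0.749. Cdc20 and Birc5 had almost the same level, 296 and 297 CPM, and unlike spread. Other genes above 2 included Rap1b, a small GTPase of platelets, at 3.60, Cd34 at 3.27, the integrin subunit Itga2b at 2.99, Gata1 at 2.96 and Mcm2 at 2.77.

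**Figure D5:**
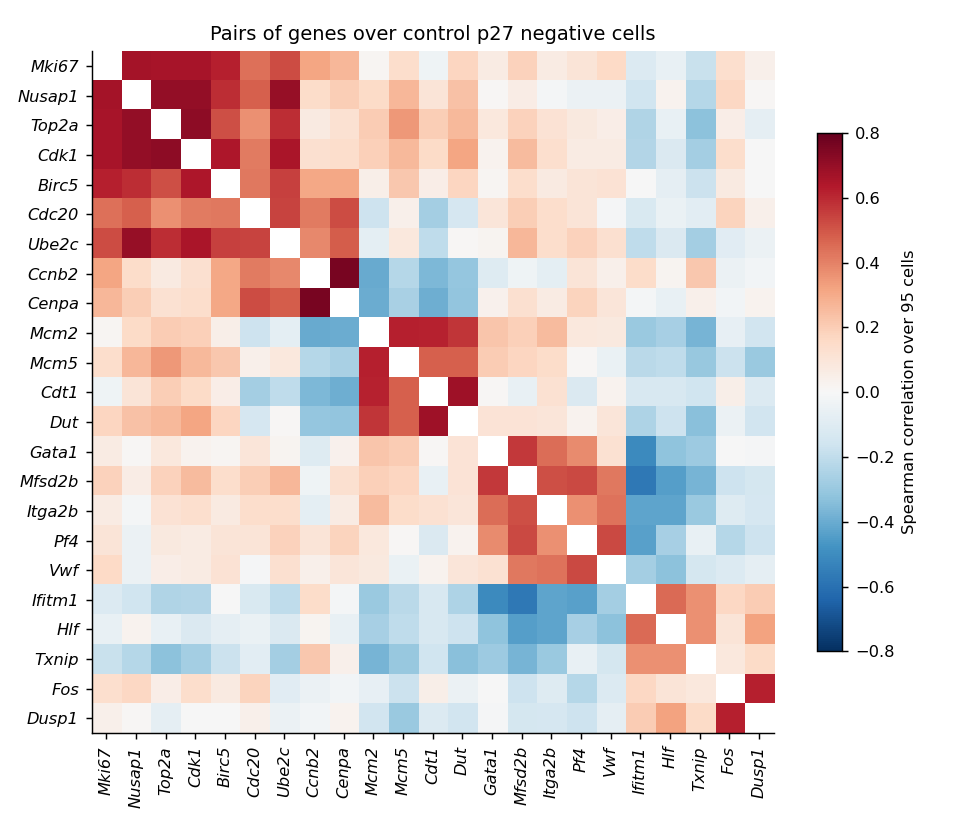
Spearman correlation of thinned counts over the 95 control p27 negative cells for pairs of 23 genes; red is positive, blue is negative and the diagonal is left blank. Pairs within Mki67 to Ube2c and within Mcm2 to Dut are red, as are Ccnb2 with Cenpa, at 0.76, Gata1 with Mfsd2b, at 0.56, and Fos with Dusp1, at 0.62. Cenpa is also red with Cdc20, at 0.52, and with Ube2c, at 0.49.

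Correlations over the 95 cells are Spearman coefficients of thinned counts among 4685 genes with at least 50 CPM that were found in at least 20% of cells, and the points share a common total of 50000 reads. Over all pairs of these genes the median was 0.03, and over pairs of the 60 mitosis genes among them it was 0.37. The 10 genes of highest correlation with Mki67 were Nusap1, Top2a, Knl1, H2afx, Cdk1, Prc1, Kif11, Ccnf, Birc5 and Spc25, from 0.67 down to 0.61. 9 of the 10 were on the mitosis lists, and H2afx encodes a histone variant. The lowest was Hist1h2bc, at -0.50.

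Ccnb2 had its highest partner in Cenpa, the centromere histone, at 0.76. Its correlation was 0.42 with Cdc20, 0.38 with Ube2c, 0.32 with Mki67 and 0.31 with Birc5, but 0.07 with Top2a. With Mcm2 it was -0.40, and -0.08, -0.48 and -0.55 in cells numbered 1 to 32, 33 to 64 and 65 to 96. Mcm2 had its highest partners in Syce2, Mcm5, Cdt1, Dctpp1 and Dut, from 0.64 to 0.57, and its correlation with Mki67 was 0.02, and 0.46, -0.20 and 0.01 in the same ranges. Summed per cell, the DNA replication list correlated with deoxynucleotide synthesis at 0.89 and with all mitosis genes at 0.19 (0.45, -0.06 and 0.28 in the ranges), and the 6 mitosis lists correlated with each other at 0.71 to 0.88. Txnip ran against replication genes, with -0.37 for Mcm2 and -0.42 for Pclaf, the PCNA clamp-associated factor.

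The 5 highest partners of Gata1 were Mfsd2b, Apoe, Itga2b, Mrpl46 and Tmem123, at 0.56 to 0.39, and those of Pf4 were Rap1b, Slc14a1, Tmsb4x, Mfsd2b and Vwf, at 0.60 to 0.53. Mfsd2b, which exports sphingosine-1-phosphate from red cells and platelets, stood on both. Gata1 had its lowest correlation with Ifitm1, at -0.51, and Pf4 had -0.44 with the same gene. Hlf correlated with Ifitm1 at 0.45 and with Itga2b at -0.42. The correlation of Gata1 with Mki67 was 0.06 and that of Pf4 with Mki67 was 0.10, while Gata1 had 0.22 with Mcm2, Itga2b had 0.25 with Mcm2 and Mfsd2b had 0.26 with Ube2c. Fos had its highest partner in Dusp1, a phosphatase of the same early response, at 0.62, and its correlation with Mki67 was 0.14. With the cells over 10% mitochondrially encoded reads left out, the gene pair among these that moved most was Txnip with Mcm2, at -0.42 in place of -0.37.

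Megakaryocyte and platelet genes were expressed in part of the cells. Of 22 listed genes, 19 had at least 1 CPM and 8 were found in at least 50% of cells. Nfe2, a transcription factor of platelet formation that HSCs also express, had 757 CPM and was found in 97.9% of cells. Pf4 was found in 61.1% (50.5 to 70.9%), Itga2b in 66.3%, Vwf, von Willebrand factor, in 37.9% and the platelet glycoproteins Gp5 and Gp1ba in 36.8% and 25.3%. Shares with at least 5 reads were 61.1% for Pf4 and 28.4% for Vwf.

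10 of 18 megakaryocyte and platelet genes were 2-fold higher than in p27 high cells, against 8.56% of all genes. 0 of 17 were 2-fold higher than in p27 low cells, against 8.42%, and 2 were 2-fold lower, near the 10.2% of all genes. Pf4 had 687 CPM in control p27 negative cells, against 577 in p27 low and 87.8 in p27 high cells, and Itga2b had 360 CPM, against 392 and 108. Gp1bb had 99.9 CPM, against 74.2 and 10.2. In cells numbered 33 to 64, however, 9 of 18 were 2-fold higher than in p27 low cells. Over all genes, 1667 were 2-fold higher in that range, against 862 in all kept cells. The share of cells with at least 1 Pf4 read after thinning was 61.1%, against 62.4% in p27 low and 59.5% in p27 high cells. The background described above was counted in reads before thinning, and its part in these thinned shares was not tested. Whether as many p27 high cells expressed the gene was not tested either.

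Erythroid genes differed widely in level. Of 19, with a median of 18 CPM, 15 had at least 1 CPM and 3 were found in at least 50% of cells. 8 of 11 were 2-fold higher than in p27 high cells, against 8.56% of all genes, and 2 of 12 were 2-fold higher than in p27 low cells, against 8.42%. The adult globin genes Hbb-bt, Hbb-bs, Hba-a1 and Hba-a2 had 5.99, 5.80, 0.721 and 0.144 CPM, and Slc4a1 had no read. Klf1, an erythroid transcription factor, had 51.7 CPM, of which 45.4% came from cell 34. Cell 37 held a further 14.9% of Car1 reads. Of the reads of Ermap, an erythroid adhesion protein, 59.7% came from cell 34 and 40% from cell 37. In cell 34 Gata1 stood at 1023 CPM and 47 mitosis genes were found. Cells 34 and 37 had 0 and 1 reads of Slamf1, 1 and 0 of Ly6a, 0 and 0 of Procr and 0 and 1 of Hlf. Most other cells also lacked Slamf1, Ly6a and Procr, and Kit stood at 222 and 268 CPM in cells 34 and 37. Whether these cells are stem cells was not tested. In cells numbered 1 to 32 the counts were lower: 2 of 9 erythroid genes were 2-fold higher than in p27 high cells. Over all genes, 1987 were 2-fold higher than in p27 high cells in that range, against 887 in all kept cells.

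Most markers of other blood cells were low. The median level was 1.77 CPM over the granulocyte and monocyte genes and 0.0361 CPM over the lymphoid genes. Lyz2, lysozyme, was the highest among 18 granulocyte and monocyte genes, with 577 CPM and a share of 92.6%, and Prtn3, a granule protease, had 96.2 CPM. The defining neutrophil genes Ctsg, Camp, Ngp and Elane had 0, 0.0481, 0.192 and 0.818 CPM. The summed list took 0.0634% of reads in the median cell (0.00145 to 0.302%), against medians of 0.0960% in p27 low, 0.107% in p27 high and 0.0454% in LPS p27 negative cells. Of 16 lymphoid genes, 7 had no read, among them Rag1, Il7r and Cd79a. Nkg7 stood against this, with 170 CPM and a share of 62.1% of cells, and Cd79b had 80.1 CPM. The mast cell, basophil and eosinophil list summed to 9.88 CPM and the macrophage, stroma and endothelium list to 25.6 CPM. The part of these few reads in the results above was not tested.

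Single cells carried a large part of the reads of some genes. Cell 51 held all 280 reads of Ly86, 51.8% of those of Irf8, a factor of monocyte and dendritic cell fate, and 97.8% of those of Csf1r, and 46 mitosis genes were found in it. The same cell ranked 2 for the lymphoid genes Cd79b (686 CPM) and Ighm (215 CPM) and had 476 CPM of Gata1. Its mitochondrially encoded share was 23.2%. Cell 29, the most deeply sequenced with 1942773 gene reads, held 44.1% of Irf8 reads and 58.1% of Ighm reads. Cell 8 held all 113 reads of Dntt, an enzyme of lymphoid progenitors, and had the highest levels of Flt3 (1298 CPM) and of Ly6a (1318 CPM). Only 10 mitosis genes were found in cell 8. Cell 39 held 17.5% of Pf4 reads, with 6163 CPM (rank 3), and 60.7% of the reads of the CDK inhibitor gene Cdkn1a.

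Of 13 immediate early genes, 7 were 2-fold lower than in p27 high cells, against 13% of all genes. 2 of 12 were 2-fold lower than in p27 low cells, against 10.2%. Fos had 538 CPM, against 770 in p27 low and 1739 in p27 high cells, and Zfp36, which destabilises mRNAs, had 97.5 CPM, against 193 and 296. Of 12 store-operated calcium genes, 5 of 11 were 2-fold lower than in p27 low and 4 of 12 than in p27 high cells, against the same 10.2% and 13%. Orai1, the pore of the calcium release-activated channel, had 42 CPM, against 88.6 and 116, and Orai3 had 87.5 CPM, against 202 and 212. Stim1, the calcium sensor of the endoplasmic reticulum, had 34.4 CPM, against 40.9 and 37.5. Of 12 haematopoietic transcription factors, 0 were 2-fold higher and 1, Runx1, was 2-fold lower than in p27 low cells, against 8.42% and 10.2% of all genes. Of 16 genes of the Myc network and ribosome biogenesis, 1 was 2-fold higher and 1 was 2-fold lower than in p27 low cells. None passed 2-fold against p27 high cells, where 8.56% of all genes were higher and 13% lower. The counts of both sets against p27 low cells were no larger than the shares of all genes.

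Against LPS p27 negative cells, mitosis genes differed little over all kept cells, and chemokine genes differed most. In cells numbered 33 to 64, however, 19 mitosis genes were 2-fold higher. In that range 1327 of all genes were 2-fold higher, against 989 in all kept cells. Whether the 19 exceeded the share of all genes in that range was not tested. 9.94% of genes were 2-fold higher and 5.83% were 2-fold lower in control p27 negative than in LPS p27 negative cells. The 5 lowest by fold were Cxcl10, with 2.77 CPM in control p27 negative cells against 7750 CPM in LPS p27 negative cells, Cxcl11 with 0.0240 against 1066, Cxcl9 with no read against 564, Ccl5 with 4.95 against 1523 and Mx1 with 0.0240 against 181. A count of 0 allows up to 0.0721 CPM over the group. Of the Ccl5 reads in control p27 negative cells, 94.2% came from cell 50. Among the 5 highest were Ggta1, Hist1h2bc, Zfp358 and Gp5. Hist1h2bc had 152 CPM, against 25.6, and Gp5 had 104 CPM, against 20.1. Long-term HSC genes did not stand lower here: 0 of 17 were 2-fold lower and 5 were 2-fold higher in control p27 negative cells, with 2 to 9 over the ranges of cell numbers. Over all genes, 1327 to 1909 were 2-fold higher in the ranges.

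Gene reads per ERCC read gave a rough scale of RNA per cell within a range of cell numbers. In cells numbered 1 to 32 the median was 7.13 in control p27 negative cells (2.29 to 12), against 4.88 in p27 low, 4.45 in p27 high and 52.4 in LPS p27 negative cells. In cells numbered 33 to 64 it was 33.8 (11.1 to 87.4), against 21.6 in p27 low, 18.7 in p27 high and 43.9 in LPS p27 negative cells. In cells numbered 65 to 96 it was 36.4 (13.5 to 55.2), against 21.9, 20.2 and 45.2 in the same order. The medians of control p27 negative cells were above those of p27 low and p27 high cells in each range of cell numbers, with values that overlapped both classes. In cells numbered 1 to 32 no control p27 negative cell reached the lowest LPS p27 negative cell, at 14.5. This gap stands beside the step in ERCC reads, and the part of that step in it was not tested. Within the 3 ranges the ratio correlated with the summed mitosis genes at 0.71, 0.29 and 0.50, and with the number of mitosis genes found at 0.79, 0.60 and 0.66. With the histone gene Hist1h2ab it correlated at 0.58, 0.45 and 0.46. Gene reads enter both measures of these pairs.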

How the data were processed

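The deposited values are raw read counts per gene and cell, not normalized. Per the submitters' processing notes, GSNAP 2015-09-29, HTSeq 0.6.0 and the mm10 build were used. Per the labels' protocols, libraries followed Picelli and colleagues with Nextera XT. The annotation release, strand setting and read filters are unstated in the labels, so overlapping antisense genes are uncertain. Rows naming no gene took 60.9% of reads in the kept cells and stayed out of totals. Symbols came from GENCODE M21 by gene ID.

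Kept cells (at least 50000 gene reads and 1000 genes) were summed to CPM, and log2 folds were taken after adding 1 CPM. For detection, spread and correlation each cell was thinned to 50000 reads. No test was made, as each group is 1 sample. No clustering or doublet removal was done. Named genes were the markers and gate genes, the 20 highest, the 12 highest and 5 lowest by spread, up to 4 per list by level and 2 by spread, the closest correlates of Mki67, Gata1 and Pf4 (Procr was under the 50 CPM needed), and the 5 largest folds each way. Other genes were named after their values were seen, and a few that the rule names are not reported here. The members and lists were chosen with earlier results of these data known. Alternatives included TMM factors from edgeR 4.0.16. Procedures were tested on simulated data. Python 3.11.15, numpy 2.4.6 and scipy 1.17.1 were used.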

Additional observations from a re-analysis of the deposited data

How the results depend on the processing

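No paired analysis was possible because each group is 1 sample and no result comes from a test. Of the counts and medians recomputed, 84 stayed within 1.5 times the values given above and 13 moved by more. The number of genes found in at least 90% of cells was 1245 at 200000 reads per cell and 1353 without thinning, in place of 617. The number of genes with high spread was 128, 135 and 144 in cells numbered 1 to 32, 33 to 64 and 65 to 96, and 48 without the highest cell of each gene, in place of 76. The number of mitosis genes 2-fold over LPS p27 negative cells was 19 in cells numbered 33 to 64 and 2 in those numbered 1 to 32, in place of 0. It was 1 with at least 200000 reads and 2000 genes, with at most 10% mitochondrially encoded reads, with totals without mitochondrially encoded genes, and without the highest cell of each gene. Over all genes the number was 1327 in cells numbered 33 to 64 and 1909 in those numbered 1 to 32, in place of 989. The number of long-term HSC genes 2-fold under p27 low cells was 5 by the mean of per-cell CPM, in place of 9, and 6 to 12 over the ranges of cell numbers. Mitosis genes 2-fold over p27 low and p27 high cells numbered 59 to 63 and 60 to 62 under every setting. The cause of these shifts was not tested. Among levels and shares of single genes, 17 moved by less than their counting intervals and 3 by more when cells over 10% mitochondrially encoded reads were left out. Cd48 had 3.71 CPM then, in place of 8.20 CPM. Correlations within ranges of cell numbers were added after the data were seen. Depth limits the shares of low genes, since genes near 10 CPM give less than 1 read in 50000.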

Other observations

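Slc34a2 did not follow the other nuclear genes in the cells with least nuclear RNA. In cell 13, where mitochondrially encoded genes took 97.9% of gene reads, Actb had 38 reads and B2m 17, the lowest CPM of the 95 cells for both. Slc34a2 stood at 9827 CPM there, rank 34 of 95, and took 4060 of the 8794 reads that were not mitochondrially encoded (46.2%), against a median of 0.784% over the kept cells. The next nuclear gene in that cell was the rRNA entry CT010467.1, with 170 reads. In cell 66, left out for its 25956 gene reads, Slc34a2 took 4563 of 13335 such reads (34.2%). Over the group Slc34a2 ran from 716 to 59853 CPM, was found in every cell and had a spread ratio of 2.03, and an annotated antisense gene overlaps it. The source of its reads was not tested.

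Hist1h2bc was found in 43.2% of cells and was the lowest correlate of both Mki67 (-0.50) and Mcm2 (-0.43), while its correlation with Txnip was 0.46. With gene reads per ERCC read it correlated at -0.61, -0.62 and -0.69 in cells numbered 1 to 32, 33 to 64 and 65 to 96, against 0.58, 0.45 and 0.46 for Hist1h2ab, another histone gene. No test of this difference was made.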
